A study of Mus musculus with 24 samples.

Results

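The 7 genes described here encode channels and pump subunits that set the electrical excitability of the muscle fibre membrane. They were taken by name from the 55416 genes counted in gastrocnemius muscle, and comprise the sodium channel Scn4a, the chloride channel Clcn1, the Na/K pump beta subunits Atp1b1 and Atp1b2, and the potassium channels Kcnj2, Kcnj11 and Kcna7. RNA was sequenced from 24 mice, with 6 mice in each of 4 groups, to ask what 8 weeks of inactivity do to muscle gene expression in adult males and females. Mice of the SMC (small mouse cage) groups lived for 8 weeks in acrylic boxes that restrict movement, whereas sham mice were ambulatory. Sham and SMC groups were made of either sex. All mice were wild type and carried no transgene, and their strain was labelled C56BL6J, which the study's methods give as C57BL/6J. The methods describe mice bought at 8 weeks of age for the first SMC experiments and fasted for 4 hours before tissue was taken. Tissue from 1 mouse made 1 library.

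A muscle fibre at rest is held near the equilibrium potentials of potassium and chloride, and skeletal muscle is unusual in that chloride carries most of its resting conductance. Opening of the voltage-gated sodium channel starts the action potential, delayed rectifier potassium channels end it, and the Na/K pump, an enzyme of a catalytic alpha and a beta subunit, restores the gradients. Inherited defects of these channels cause myotonias and periodic paralyses.

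The promoters of Clcn1, Scn4a and Atp1b1 are shown because the first pair came nearest to a call under SMC and the last varied most from mouse to mouse. RefSeq windows of 300 bases, from 250 bases before to 50 after the start site, were at hand for 5 of the 7 genes on GRCm38.p6, and Atp1b2 and Kcnj11 were not matched. Capitals mark E-boxes, GC boxes, TATA motifs and MEF2 motifs, each searched on both strands.
Clcn1, chr6:42286435-42286734, plus strand: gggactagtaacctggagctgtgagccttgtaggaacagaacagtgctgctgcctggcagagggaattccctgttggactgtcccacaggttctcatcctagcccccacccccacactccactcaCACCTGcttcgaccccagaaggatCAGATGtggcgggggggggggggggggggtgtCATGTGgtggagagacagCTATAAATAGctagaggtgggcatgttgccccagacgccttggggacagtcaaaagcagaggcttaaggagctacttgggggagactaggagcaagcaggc
Scn4a, chr11:106349341-106349640, minus strand: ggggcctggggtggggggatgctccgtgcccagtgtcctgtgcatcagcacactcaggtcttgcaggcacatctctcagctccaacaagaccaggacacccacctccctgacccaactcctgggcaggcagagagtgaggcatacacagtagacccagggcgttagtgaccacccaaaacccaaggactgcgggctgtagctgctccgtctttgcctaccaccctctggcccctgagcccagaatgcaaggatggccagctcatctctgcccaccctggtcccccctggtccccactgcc
Atp1b1, chr1:164458306-164458605, minus strand: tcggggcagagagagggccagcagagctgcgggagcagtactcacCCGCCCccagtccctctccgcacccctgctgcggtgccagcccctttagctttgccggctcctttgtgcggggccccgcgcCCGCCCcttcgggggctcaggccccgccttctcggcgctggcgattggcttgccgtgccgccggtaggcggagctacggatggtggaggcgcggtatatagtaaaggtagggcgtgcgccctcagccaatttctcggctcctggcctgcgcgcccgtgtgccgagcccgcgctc

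The Clcn1 window held 3 E-boxes, spelled CANNTG, and 1 MEF2 motif that began 51 bases before the start site, and the TATA motif (TATAAA) lay inside the MEF2 match. Of all 32851 RefSeq promoter windows of this length, 3.19% held a MEF2 motif, 13.6% held the TATA motif and 72.3% held an E-box. The Atp1b1 window held 2 GC boxes (GGGCGG), a motif found at least once in 35.7% of all windows, and its GC content was 71% against a median of 52.7%. None of the 4 motifs was in the Scn4a window. That window lies at a RefSeq start site inside the gene as GENCODE gives it, whose 5' end is at 106353288 on the minus strand. The bases before that end were not searched. The Kcnj2 window held 2 E-boxes and 2 GC boxes, and the Kcna7 window 3 E-boxes. The Kcna7 window, too, lies inside its gene, which begins at 45405653 in GENCODE. These matches are descriptions of the letters and say nothing of binding.

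Depth was even, with 23026627 to 36880413 counts per library. Summed over 6 skeletal muscle markers, the level was 30187 to 49137 CPM (counts scaled to a common library size) in every library, and Xist and Ddx3y went against the labelled sex in 0 libraries. In male sham 4 and female sham 7, the summed level of 10 slow fibre genes was 91.4 and 76.4 CPM, against 715 to 4594 CPM in the other libraries, with none of the 10 genes at 0 counts. The differences of the 7 genes are also given without these 2 libraries, and those of the related genes where they moved by over 1.5 times or changed a call. In whole muscle, fewer cells of a type and less RNA per cell cannot be told apart.

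The 7 genes had at least 265 counts in every library, the lowest being Atp1b1 in male sham 4. Per kilobase of exon, the level averaged over the 24 mice was 109 ± 15.7 CPM (SD) for Scn4a, 59.4 ± 15.95 for Atp1b2, 48.7 ± 21.1 for Atp1b1 and 40.0 ± 5.87 for Clcn1. On the same scale it was 35.2 ± 6.25 for Kcnj11, 26.8 ± 4.57 for Kcna7 and 20.5 ± 4.07 for Kcnj2. The ranges of 1 SD around the means were apart for Scn4a and Atp1b2 and overlapped for every other pair of neighbours in this order. Exon lengths came from an annotation of an earlier genome build than the counts, so the order, unlike the group comparisons, also carries any error in length.

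**Figure D1:**
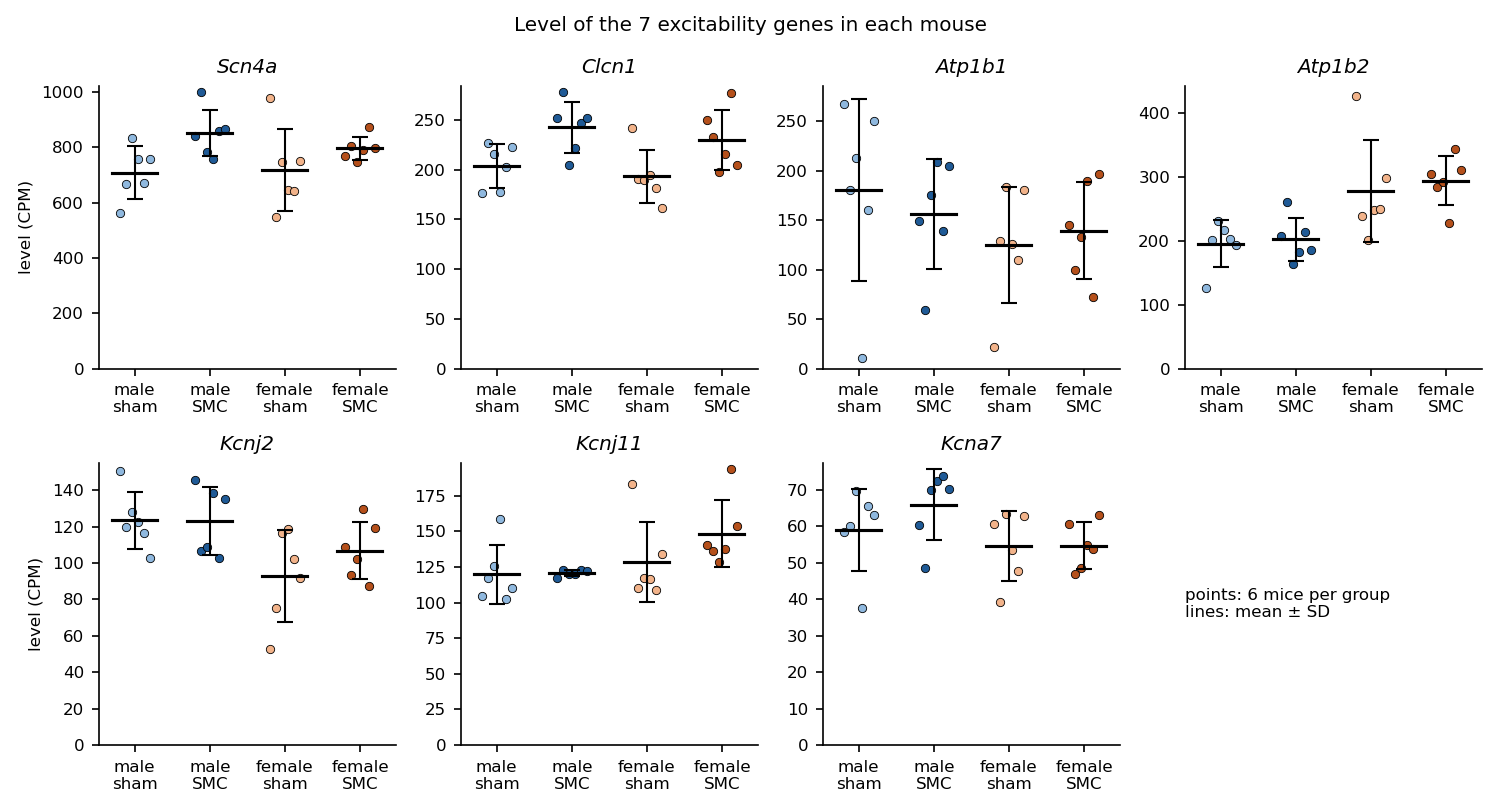
Level of the 7 genes in each mouse, in CPM on a linear axis from 0, by group, with points for the 6 mice of a group and lines for the mean ± SD. Sham and SMC points overlap in every panel, most female points of Atp1b2 lie above the male ones, and 1 male sham and 1 female sham mouse lie far below the others for Atp1b1, at 10.97 and 21.4 CPM.

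Scn4a encodes Nav1.4, the sodium channel of adult skeletal muscle (chr11:106318592-106353288, minus strand, GRCm38). Its level was 561, 715 and 834 CPM (lowest, median and highest mouse) in male sham and 759, 850 and 999 CPM in male SMC. Female sham mice had 550, 695 and 980 CPM and female SMC mice 747, 794 and 873 CPM. The SMC means were the higher in both sexes, but the groups overlapped, and the highest female sham mouse lay above all female SMC mice. The log2 fold change was 0.26 in males (SE 0.113, FDR 0.375) and 0.15 in females (SE 0.112, FDR 0.644) by edgeR's quasi-likelihood test, in which FDR is the Benjamini-Hochberg adjusted p over 16408 genes. Averaged over the sexes it was 0.21 (SE 0.0795, 95% interval 0.04 to 0.37, FDR 0.168 by edgeR). It passed the threshold of 0.05 without male sham 4 and female sham 7, at 0.27 with an FDR of 0.0415 by edgeR, and without female sham 7 alone, at 0.26 with an FDR of 0.0440 by edgeR. Leaving out any other single library gave no call, with values down to 0.17 and FDRs up to 0.26 by edgeR. Scn4a was not called by DESeq2, by limma, or with at least 10 counts required in every library.

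Of the 5 sodium channel subunits listed beside Scn4a, 4 had a higher mean in SMC in each sex, and 0 were called. Among them, Scn2b had the lowest p in females, with a log2 fold change of -0.48 (FDR 0.267 by edgeR). Scn4b, the beta 4 subunit, was at 0.16 averaged over the sexes (FDR 0.239 by edgeR).

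Clcn1 encodes ClC-1, the chloride channel that stabilises the resting fibre (chr6:42286685-42315756, plus strand, GRCm38). Its level was 176, 209 and 227 CPM (lowest, median and highest mouse) in male sham and 204, 250 and 278 CPM in male SMC. Female sham mice had 162, 190 and 242 CPM and female SMC mice 198, 224 and 277 CPM. The medians of both SMC groups lay above those of both sham groups, with overlap in each sex. The log2 fold change was 0.25 in males (SE 0.101, FDR 0.349) and 0.25 in females (SE 0.101, FDR 0.286 by edgeR). The 2 estimates differed by 0.00 with a 95% interval of -0.29 to 0.30, an interval that does not show them to be equal.

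Averaged over the sexes, the Clcn1 difference was 0.25 (SE 0.0715, 95% interval 0.10 to 0.40, FDR 0.0590 by edgeR). It thus missed the threshold by a small margin, and its side of the threshold depended on the setting. It was called by DESeq2 (FDR 0.0206), with at least 10 counts required in every library (FDR 0.0488 by edgeR), and without male sham 4 and female sham 7 (FDR 0.0307 by edgeR). Without female sham 7 alone the FDR was 0.0235 by edgeR, and leaving out any other single library gave no call. The 3' end of Clcn1 overlaps exons of Fam131b on the opposite strand, a gene with 405 counts over all 24 libraries, whereas Clcn1 had at least 4221 in each.

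Of the 8 genes of chloride handling and Clcn1 splicing that were listed, 3 had a higher mean in SMC in males and 4 in females, and 0 were called. The cotransporter Slc12a2, which brings chloride into cells, was at a log2 fold change of -0.42 in males (FDR 0.353 by edgeR), or -0.12 without male sham 4. Slc12a7, which carries chloride out with potassium, was at 0.29 in females (FDR 0.284 by edgeR). The splicing factors Mbnl1, Mbnl2 and Celf1, which act on Clcn1 transcripts, were tested and not called.

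The pump subunits gave no call under SMC. Atp1b1 (chr1:164437109-164458355, minus strand, GRCm38) encodes the beta 1 subunit, and its level was 10.97, 197 and 267 CPM (lowest, median and highest mouse) in male sham and 59.4, 162 and 209 CPM in male SMC. It was 21.4, 127 and 183 CPM in female sham and 72.5, 139 and 197 CPM in female SMC. The groups overlapped throughout, and the lowest sham mouse of each sex lay below every SMC mouse. The log2 fold change was -0.21 in males (SE 0.473, 95% interval -1.18 to 0.77, FDR 0.919) and 0.16 in females (SE 0.473, 95% interval -0.82 to 1.13, FDR 0.932 by edgeR). Without both low libraries the male value was -0.46 (SE 0.263, FDR 0.478) and the female value -0.06 (SE 0.264, FDR 0.938 by edgeR), so that the sign in females rested on female sham 7. With 1 library left out at a time, the male value ran from -0.46 without male sham 4 to -0.04 without male SMC 14. The last exons of Atp1b1 overlap Nme7 on the opposite strand, with 885 counts over all libraries.

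Atp1b2 (chr11:69599736-69605942, minus strand, GRCm38) encodes the beta 2 subunit. Its level was 126, 202 and 231 CPM in male sham and 163, 197 and 260 CPM in male SMC (lowest, median and highest mouse). Females had 201, 250 and 428 CPM in sham and 228, 299 and 344 CPM in SMC. Sham and SMC mice overlapped in both sexes, and female levels were mostly above male ones. SMC gave log2 fold changes of 0.05 in males (SE 0.157, FDR 0.945) and 0.08 in females (SE 0.157, FDR 0.882 by edgeR). Female sham 7 had the highest level of all mice, and without it the female value was 0.25, against 0.01 without female sham 9.

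The balance of the 2 beta subunits was taken as the log2 ratio of Atp1b1 to Atp1b2 counts. Male sham mice had -0.579 ± 1.89 and male SMC mice -0.466 ± 0.886 (SD, n = 6 each), and the difference of 0.11 was within the spread (p = 0.913, exact permutation test, two-sided). Female sham mice had -1.37 ± 1.48 and female SMC mice -1.15 ± 0.687, which differed by 0.22 (p = 0.840, exact permutation test, two-sided, n = 6 each). The smallest p this design allows is 0.00216. Without male sham 4 the male difference was -0.63, and without female sham 7 the female difference was -0.37.

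Of the pump partners, Fxyd1, the phospholemman that regulates the pump, stood at a log2 fold change of 0.24 in females (FDR 0.199) and -0.06 in males (FDR 0.855 by edgeR). The difference between those responses was -0.30 (SE 0.117, FDR 0.926 by edgeR). Of the 8 pump partners listed, 2 had a higher mean in SMC in males and 5 in females, and 0 were called.

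Atp1b1 was the most variable of the 7 genes and moved with the slow fibre genes. Over the 24 libraries its log2 CPM correlated with the slow fibre score, the mean log2 CPM of 10 slow fibre genes, at r = 0.90 and a Spearman rho of 0.55. Without male sham 4 and female sham 7, r was 0.54 over 22 libraries. Within males r was 0.95 and within females 0.96, in each case with 1 of those libraries included. All these points share library and depth, so the values describe how genes varied together between samples. Atp1b2 correlated with the slow fibre score at r = -0.30, or -0.02 over the 22 libraries, and with Atp1b1 at r = -0.47, or -0.61 over the 22. With the fast fibre score Atp1b2 had r = 0.64, or 0.61 over the 22, and Atp1b1 had r = -0.52, or -0.45 over the 22. Atp1b1 followed Myh2, a myosin gene in neither score, more closely (r = 0.97, or 0.91 over the 22).

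**Figure D2:**
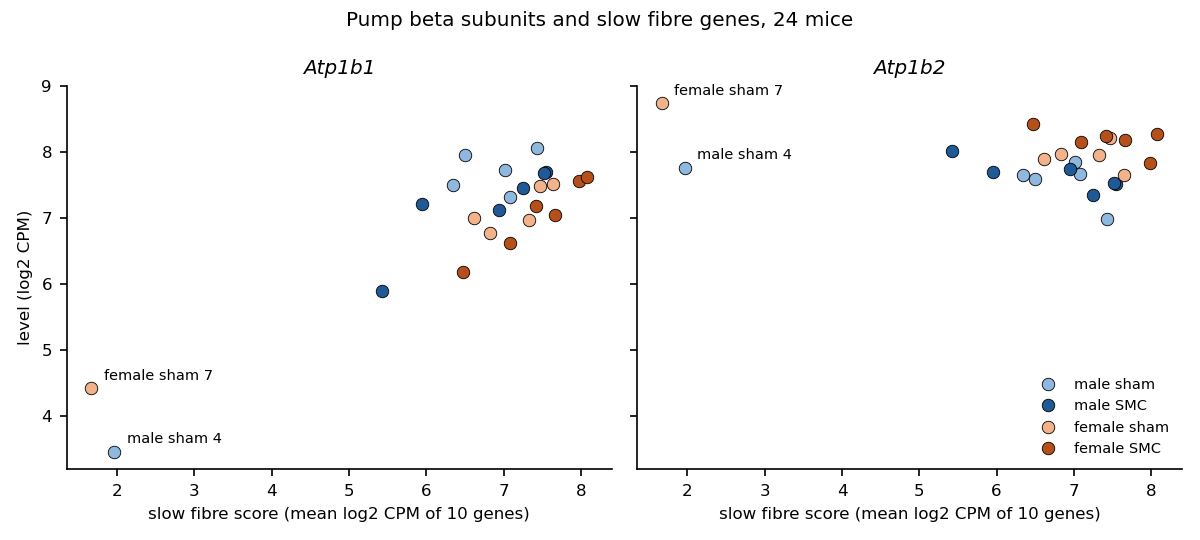
Log2 CPM of Atp1b1 (left) and Atp1b2 (right) against the slow fibre score (mean log2 CPM of 10 genes) in 24 mice, coloured by group. Male sham 4 and female sham 7 lie at scores of 1.96 and 1.67 with Atp1b1 at 3.46 and 4.43 log2 CPM, apart from the other 22 mice, whereas for Atp1b2 male sham 4 lies among the others and female sham 7 is the highest of all.

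Kcnj2 encodes Kir2.1, an inward rectifier that carries resting potassium conductance (chr11:111066164-111076821, plus strand, GRCm38). Its level was 103, 121 and 150 CPM (lowest, median and highest mouse) in male sham and 103, 122 and 146 CPM in male SMC. It was 52.9, 97.1 and 118 CPM in female sham and 87.4, 106 and 130 CPM in female SMC. The male groups covered nearly the same range, and female sham 7 was the lowest of all mice. The log2 fold change was -0.00 in males (SE 0.150, 95% interval -0.32 to 0.31, FDR 0.994) and 0.20 in females (SE 0.151, 95% interval -0.11 to 0.51, FDR 0.638 by edgeR). Without female sham 7 the female value was 0.09.

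Kcnj11 encodes Kir6.2, the pore of the ATP-sensitive potassium (KATP) channel (chr7:46093953-46100764, minus strand, GRCm38). Its level was 102, 114 and 158 CPM in male sham and 118, 121 and 123 CPM in male SMC (lowest, median and highest mouse). Females had 109, 117 and 183 CPM in sham and 128, 139 and 194 CPM in SMC. The 6 male SMC mice lay in a narrow band inside the male sham range, and the female groups overlapped. The log2 fold change was 0.01 in males (SE 0.122, 95% interval -0.24 to 0.26, FDR 0.981) and 0.21 in females (SE 0.122, 95% interval -0.04 to 0.46, FDR 0.514 by edgeR). Female sham 7 had the highest sham level, and without it the female value was 0.34, with an FDR not below 0.132 in any fit that left out 1 library.

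Kcna7 encodes Kv1.7, a voltage-gated potassium channel (chr7:45405653-45409763, plus strand, GRCm38). Its level was 37.6, 61.6 and 69.7 CPM (lowest, median and highest mouse) in male sham and 48.5, 70.0 and 73.8 CPM in male SMC. It was 39.3, 56.9 and 63.3 CPM in female sham and 46.8, 54.3 and 63.1 CPM in female SMC. The ranges overlapped in both sexes. The log2 fold change was 0.16 in males (SE 0.134, 95% interval -0.12 to 0.43, FDR 0.729) and 0.00 in females (SE 0.134, 95% interval -0.27 to 0.28, FDR 0.996 by edgeR). The male value was 0.05 without male sham 4.

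Kcnj12, which encodes the related rectifier Kir2.2, averaged 18.8 CPM per kilobase, close to the 20.5 of Kcnj2. Its log2 fold change was 0.08 in males (FDR 0.914) and -0.26 in females (FDR 0.563 by edgeR), and the female value turned to 0.01 without male sham 4 and female sham 7. Of the KATP regulatory subunits, Abcc9 (SUR2) averaged 45.6 CPM per kilobase and Abcc8 (SUR1) 0.761, while the other pore gene, Kcnj8 (Kir6.1), averaged 5.16. Abcc9 had log2 fold changes under SMC of 0.16 in males and 0.11 in females, and 0.13 averaged over the sexes (FDR 0.274 by edgeR). Abcc8 was at -0.19 in males (FDR 0.843) and 0.24 in females (FDR 0.752 by edgeR). Without both low libraries, Abcc8 was at -0.03 and 0.48, and Abcc9 in females at 0.19. Of the 4 tested genes in this list, 3 had higher means in SMC in each sex and 0 were called.

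Counted together, 0 of the 7 genes were called under SMC at an FDR under 0.05 in males, where 0% of the 16408 genes tested were called, and 0 of 7 in females, where 0.341% were called. Averaged over the sexes, 0 of 7 were called beside 2.36% of all genes. The difference between male and female responses was called for 0 of the 7 and for 0% of all genes. At an unadjusted p under 0.05, Scn4a and Clcn1 were higher in SMC in males (2 of 7, against 11% of all genes, in either direction) and Clcn1 in females (1 of 7, against 12.5%). Averaged over the sexes, Scn4a and Clcn1 passed that limit, beside 17.5% of all genes. The SMC mean was the higher for 5 of the 7 in males and 7 of 7 in females, beside 8052 and 7813 of the 16408 genes. Median log2 fold changes of the 7 were 0.05 and 0.16, while the median over all genes was -0.00 in males and -0.01 in females. The 7 female values include Kcna7 at 0.00 and Atp1b1, which was at -0.06 without female sham 7. Sham and SMC mice were fully apart for 0 of the 7 genes in either sex, as they were for 0.902% of all genes in males and 1.03% in females.

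**Figure D3:**
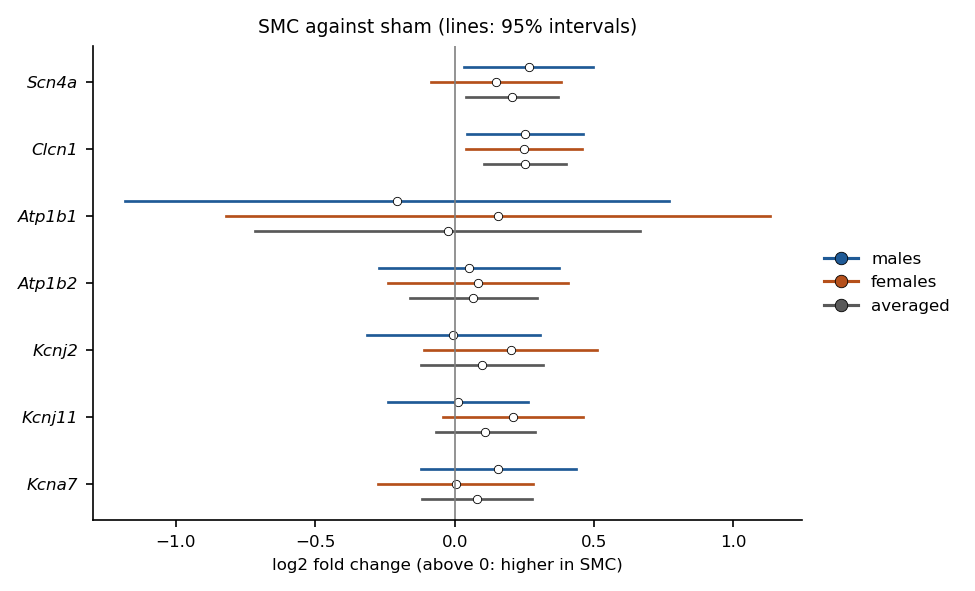
Log2 fold change of SMC against sham for the 7 genes in males, females and averaged over the sexes, with 95% intervals from the edgeR fit as lines and open points for an FDR of 0.05 or more. The intervals of Clcn1 lie above 0 in all 3 comparisons, those of Scn4a in males and in the average, and all points are open.

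Without male sham 4 and female sham 7, the SMC differences in males were 0.27 for Scn4a, 0.20 for Clcn1, -0.46 for Atp1b1 and 0.07 for Atp1b2. Those of the potassium channels were -0.02 for Kcnj2, 0.10 for Kcnj11 and 0.05 for Kcna7, and 0 of 7 were called beside 0% of all genes. In females the differences were 0.26 for Scn4a, 0.33 for Clcn1, -0.06 for Atp1b1 and 0.25 for Atp1b2. For the potassium channels they were 0.09 for Kcnj2, 0.34 for Kcnj11 and 0.04 for Kcna7. There 0 of 7 were called beside 0.936% of all genes, the lowest FDRs being 0.0610 for Kcnj11 and 0.0787 for Clcn1 by edgeR. Averaged over the sexes, 2 of the 7 genes, Scn4a and Clcn1, were called in that fit, beside 3.18% of all genes. Kcnj11 was at 0.22 (FDR 0.0519 by edgeR), Atp1b2 at 0.16, Atp1b1 at -0.26, Kcna7 at 0.04 and Kcnj2 at 0.04.

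Once the slow fibre score entered the fit as a covariate, 3 of the 7 genes were higher in SMC averaged over the sexes, beside 4.47% of all genes called in either direction. These were Clcn1 (log2 fold change 0.29, FDR 0.0193), Scn4a (0.28, FDR 0.0256) and Kcnj11 (0.22, FDR 0.0357 by edgeR). Kcnj11 was also called in females in that fit (0.34, FDR 0.0450 by edgeR), beside 1.14% of all genes, and 0 of 7 were called in males, beside 0.0792%. The score was itself measured in these libraries, and 10 of its 10 genes had higher means in female SMC than in female sham, against 6 of 10 in males. It was 1.96 in male sham 4 and 1.67 in female sham 7, against 5.42 to 8.08 in the other libraries. The covariate thus largely sets those 2 sham libraries apart, and its calls are not independent of the fit without them.

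Other marker lists also moved with SMC, and their part in the values above was not tested. Of 6 pericyte and smooth muscle markers, 6 had higher means in SMC in both sexes, with a summed level of 503 to 554 CPM in male SMC against 349 to 520 in male sham. Female SMC mice had 470 to 545 CPM and female sham mice 363 to 508. Acta2 (log2 fold change 0.73, FDR 0.00866) and Myh11 (0.57, FDR 0.0112 by edgeR) rose averaged over the sexes. Of 6 skeletal muscle markers, 2 had higher means in SMC in males and 6 in females, with a female median log2 fold change of 0.16, beside 0.16 for the 7 genes. Of 11 fast fibre markers, the SMC mean was higher for 7 in males and 10 in females. Summed fast fibre levels were 76414 to 162694 CPM in female sham and 91295 to 137868 CPM in female SMC. All 5 adipocyte markers had higher means in female SMC, with a median of 0.79 and summed levels of 14.7 to 171 CPM against 18.1 to 89.1 CPM in female sham, and 1 of 5 was higher in males. Fibroblast markers had lower means in SMC for 5 of 6 in females (median -0.42) and 3 of 6 in males, and were summed to 521 to 1782 CPM in female sham and 608 to 948 CPM in female SMC. Means of macrophage markers were lower in SMC for 6 of 6 in males and 4 of 6 in females, and those of endothelial markers higher for 6 of 7 and 5 of 7. Of these further lists, 0 genes were called in either sex. Of 8 Schwann cell markers, 7 in males and 6 in females had higher means in SMC, and 0 were called.

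The wider set of excitability genes gave no call under SMC in the main edgeR fit, with all libraries and no covariate. Of the 64 related genes listed, 57 passed the filter on low counts, and Kcnj14, Kcna3, Kcna4, Kcne1l, Kcne2, Kcne3 and Sptbn4 did not. The SMC mean was higher for 30 of the 57 in males and 33 in females, with median log2 fold changes of 0.03 and 0.05. At an unadjusted p under 0.05, 6 were higher and 1 lower in male SMC, and 3 were higher and 2 lower in female SMC. These are 7 and 5 of 57, near the shares of 11% and 12.5% over all genes, and the genes named next are given as values.

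Under SMC in males, Kcna1 and Kcna2, which encode the axonal channels Kv1.1 and Kv1.2, were at log2 fold changes of 0.77 (FDR 0.265) and 0.64 (FDR 0.211 by edgeR), and Kcna6 was at 0.79 (FDR 0.393 by edgeR). Kcnn2, a calcium-activated channel, was at 0.94 in males (FDR 0.227 by edgeR). Without male sham 5 alone, Kcna1 was at 1.08 in males and passed the threshold (FDR 0.0311 by edgeR). Leaving out any other single library gave no call of Kcna1 in males, with FDRs up to 0.465 by edgeR. Its value was 0.56 without male SMC 17. The male response exceeded the female one by 0.89 for Kcna1 (FDR 0.926) and by 0.64 for Kcna2 (FDR 0.946 by edgeR). The summed level of the Schwann cell markers was 48.7 to 103 CPM in male sham and 84.7 to 136 CPM in male SMC. In females it was 67.5 to 185 CPM in sham and 87.4 to 192 CPM in SMC. The part of this cell type in the values of these channels was not tested. Kcnmb1, a potassium channel subunit of smooth muscle, was at 0.50 averaged over the sexes (FDR 0.205 by edgeR).

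Cacnb1, the beta subunit of the voltage sensor that couples the action potential to calcium release, came nearest to the threshold among the 57. Its log2 fold change was 0.31 in males (FDR 0.283), 0.25 in females (FDR 0.339) and 0.28 averaged over the sexes (SE 0.0773, FDR 0.0532 by edgeR). The averaged value was called by DESeq2 (FDR 0.0213), by limma (FDR 0.0325), with at least 10 counts in every library (FDR 0.0455 by edgeR), and without male sham 3, male sham 6, female sham 7 or female sham 9 alone (FDR 0.0281 to 0.0452 by edgeR). Those were 4 of the 24 fits that left out 1 library, and the rest gave no call. Over the 24, values ran from 0.24 without male sham 4 to 0.32 without male sham 6, and the FDR reached 0.101 by edgeR. Of the 4 voltage sensor genes listed, 3 had higher means in male SMC and 4 in female SMC. Of the 5 tested membrane anchor genes, 1 had a higher mean in SMC in each sex.

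**Figure D4:**
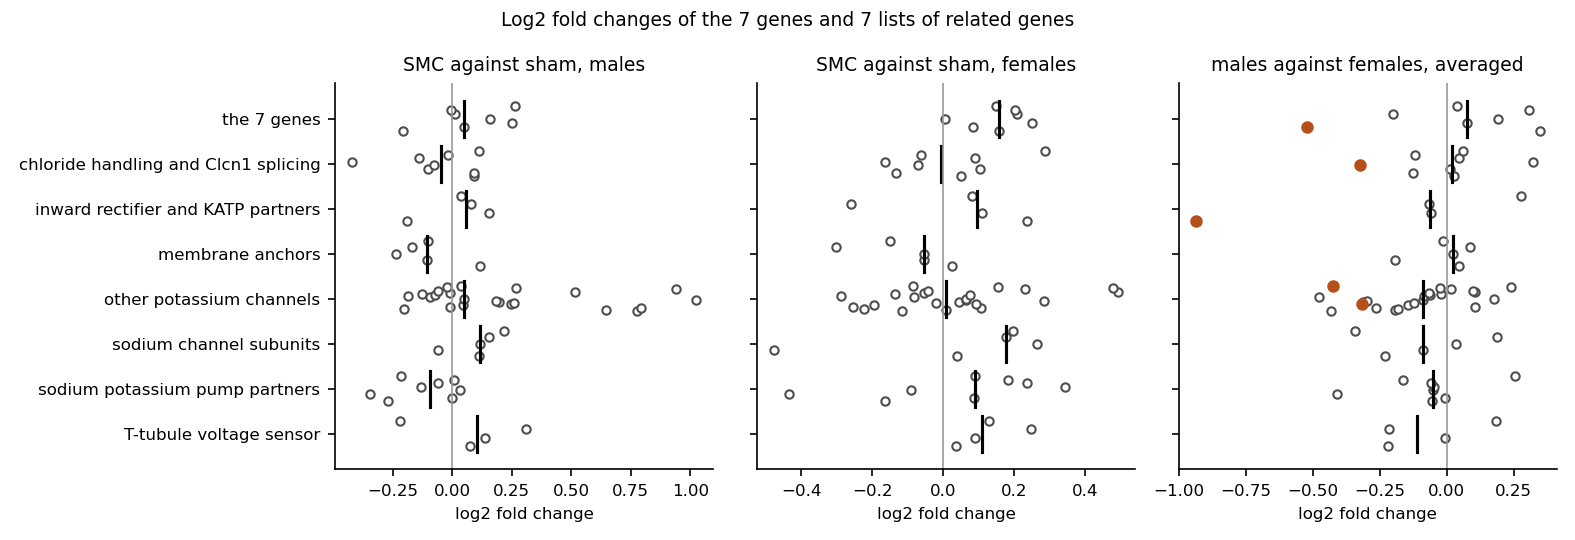
Log2 fold changes of the 7 genes and of the tested genes of 7 related lists for SMC against sham in males, in females, and for males against females averaged over sham and SMC, each point a gene and each bar a list's median. Filled points passed an FDR of 0.05 in edgeR, and they occur only in the comparison of the sexes, among them Atp1b2, Abcc8, Mbnl2 and Kcnq5, and all on the side lower in males.

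The sexes differed in Atp1b2. Over sham and SMC, Atp1b2 was lower in males, with a log2 fold change of -0.52 (SE 0.111, 95% interval -0.75 to -0.29, FDR 0.00591 by edgeR). In sham mice alone it was -0.50 (SE 0.157, FDR 0.0951 by edgeR). The averaged call held when any 1 library was left out, with values from -0.56 to -0.44. The other beta subunit, Atp1b1, was at 0.35 (SE 0.335, 95% interval -0.34 to 1.04, FDR 0.622 by edgeR), on the side of males. Per kilobase, Atp1b1 and Atp1b2 stood at 58.5 ± 29.9 and 47.9 ± 8.94 CPM (SD, n = 6) in male sham, and at 40.5 ± 19.1 and 68.0 ± 19.5 CPM in female sham.

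Kcnj2 lay on the side of males, with log2 fold changes of 0.31 averaged over treatments (SE 0.107, FDR 0.102) and 0.41 in sham mice (FDR 0.171 by edgeR). Kcnj11 was at -0.20 averaged over treatments (FDR 0.198 by edgeR) and Kcna7 at 0.19 (FDR 0.269 by edgeR). Scn4a and Clcn1 had sex differences of 0.04 (95% interval -0.13 to 0.20) and 0.08 (95% interval -0.07 to 0.22). In the fit with that same covariate, Atp1b2, Kcnj2, Kcnj11 and Atp1b1 were called averaged over treatments, 4 of 7 beside 9.18% of all genes. Their values were then -0.56, 0.37, -0.24 and 0.55, with FDRs of 0.000124, 0.0108, 0.00956 and 0.0166 by edgeR. Atp1b1 itself correlated with the slow fibre score (r = 0.90 over 24 libraries), and all 10 slow fibre markers had lower means in males. The adjusted sex differences, that of Atp1b1 above all, thus depend on the score. Without male sham 4 and female sham 7, Atp1b2 was at -0.45 (FDR 0.00526 by edgeR), and 1 of 7 genes was called beside 7.66% of all genes. The other values in that fit were 0.08 for Scn4a, 0.14 for Clcn1, 0.36 for Atp1b1, 0.25 for Kcnj2, -0.18 for Kcnj11 and 0.26 for Kcna7. In sham mice alone Atp1b2 was then at -0.36 and Kcnj2 at 0.30, and 0 of 7 were called beside 3.09% of all genes, whereas the fit with the covariate called 2 of 7, Atp1b2 and Kcnj2, in sham mice, beside 4.22% of all genes.

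At an FDR under 0.05, 1 of the 7 genes was called between the sexes averaged over treatments, against 4.93% of all genes, and 0 of 7 in sham mice, against 1.97%. At an unadjusted p under 0.05 these counts were 3 of 7, against 19.3%, and 2 of 7, against 15.5%.

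**Figure D5:**
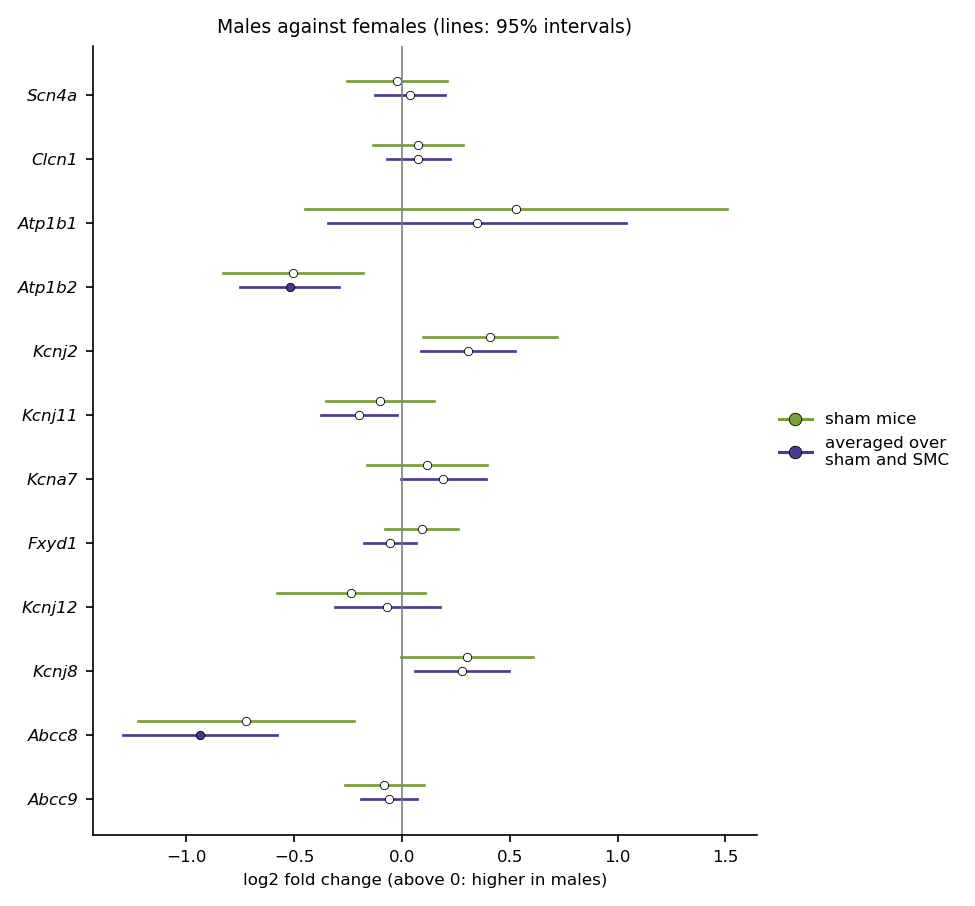
Log2 fold change of males against females for the 7 genes and 5 direct partners, in sham mice and averaged over sham and SMC, with 95% intervals from the edgeR fit and filled points for an FDR under 0.05. Atp1b2 and Abcc8 are filled and lie at -0.52 and -0.94 in the averaged comparison, both lower in males.

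Of the 57 related genes, 4 were lower and 0 higher in males averaged over treatments, beside 4.93% of all genes called in either direction. Abcc8 was 4.5 ± 1.54 CPM in sham males, 3.93 ± 0.613 in SMC males, 7.45 ± 3.19 in sham females and 8.73 ± 2.80 in the SMC females (SD, n = 6), and males stood below females by a log2 fold change of -0.94 (SE 0.173, FDR 0.00143 by edgeR). Mbnl2 was at -0.32 (FDR 0.00144) and Kcnq5 at -0.42 (FDR 0.0348 by edgeR). Leaving out 1 library at a time ended the call of Kcnq5 in 10 of 24 fits, and without both low libraries its FDR was 0.0601 by edgeR. Mbnl2 was also called in sham mice alone (-0.32, FDR 0.0468 by edgeR), a call that ended in 22 of the 24, with -0.19 without both low libraries. Kcnj8 was at 0.28 (FDR 0.135 by edgeR).

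Of genes with an unadjusted p under 0.05 between the sexes, Cacnb1 (-0.22, FDR 0.112), Cacna1s (-0.22, FDR 0.230), Ank3 (-0.19, FDR 0.169), Kcnc4 (-0.30, FDR 0.162) and Kcna1 (-0.43, FDR 0.174 by edgeR) were on the female side averaged over treatments. Scn4b (0.19, FDR 0.154) and Slc12a2 (0.32, FDR 0.133 by edgeR) were on the male side, and Slc12a2 was at 0.17 without male sham 4. Without both low libraries, Ank3 (-0.22, FDR 0.0262), Kcnj8 (0.28, FDR 0.0339) and Scn4b (0.24, FDR 0.0365 by edgeR) were called, and without male sham 5 alone Kcna1 was (-0.59, FDR 0.0217 by edgeR). Leaving out any other single library gave no call of Kcna1 between the sexes, with FDRs up to 0.265 by edgeR. Means of all 10 slow fibre markers, 8 of 8 Schwann cell markers and 5 of 5 adipocyte markers were lower in males than in females. Retn (log2 fold change -1.76, FDR 0.0281 by edgeR) was the 1 gene called among them, and the part of these cell types in the sex differences was not tested.

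Among the 7 genes, Scn4a and Clcn1 varied together between mice (r = 0.69 over 24 libraries, 0.72 over 22 without the low slow fibre libraries, 0.77 in males and 0.62 in females). Scn4a followed Abcc9 more closely (r = 0.90 over 24 libraries, 0.88 over 22). Atp1b2 and Kcnj11 had r = 0.72, and Atp1b2 and Kcnj2 had r = -0.71 over 24 libraries, or 0.70 and -0.59 over 22. These values pool the sexes, which differed in Atp1b2. Within males they were 0.44 and -0.44, and within females 0.82 and -0.66. Kcna7 followed Atp1b1 at r = 0.58 over 24 libraries and 0.60 over 22, with 0.86 in males and 0.05 in females. The male value includes male sham 4, the lowest of all mice for both genes (37.6 and 10.97 CPM).

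Outside the lists, the genes with the highest Pearson r of log2 CPM over the 24 libraries were Camta2, Sema4d and Man2a2 for Scn4a (0.93, 0.92 and 0.92) and Sobp, Mrtfb and Myhas for Clcn1 (0.83, 0.80 and 0.80). For Atp1b1 they were Gm5532, Myh2 and Ldhb (0.97 each), of which Myh2 encodes the type IIa myosin heavy chain. For Atp1b2 they were Gpd2, Ppp3ca and Rps6kc1 (0.93, 0.90 and 0.89). For Kcnj2 they were Six4, Mecom and Rasgrf2 (0.87, 0.84 and 0.83), and for Kcnj11 they were Atg9a and Pcbp2 (0.89 each). Trp53inp2, Trak2 and Idh3a came nearest to Kcna7 (0.90 each). Over 22 libraries without the low slow fibre pair, Myh2 had r = 0.91 and Ldhb 0.90 with Atp1b1, and Six4 had 0.80 with Kcnj2.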

How the data were processed

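RNA was isolated from skeletal muscle, ribosomal RNA was depleted, and directional libraries were made. The authors deposited raw counts of reads per Ensembl gene for each mouse, without normalization. The submitters' processing notes name cutadapt 1.16, STAR 2.7.9a, featureCounts 1.6, DESeq2 1.34.0 and the build GRCm39 (mm39). The gene annotation release, and whether featureCounts used strand, are not given in the sources used here. Without strand, reads of a gene and of an overlapping gene on the opposite strand cannot be told apart.

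Samples were grouped by labelled sex and treatment. Total counts ran from 23026627 to 36880413 per library, and 0 columns were left unused. Symbols were matched by Ensembl identifier for 52083 of 55416 genes, and genes without one held 0.361% of counts. The filterByExpr function kept 16408 genes. Counts were scaled by TMM, 1 mean was fitted for each group, and contrasts were tested by the two-sided quasi-likelihood test of edgeR 4.0.16 (R 4.3.3), with a Benjamini-Hochberg FDR under 0.05 as threshold. The common BCV was 0.206. SE was the log2 fold change over the root of F, and 95% intervals used the t quantile of the fit's degrees of freedom. Log2 CPM used a prior count of 2. Exon lengths, gene positions and overlaps came from GENCODE on GRCm38. The beta subunit ratio was compared by an exact permutation test over 924 relabelings (scipy 1.17.1). Among 60 pairs of libraries within groups, the lowest chi-square per degree of freedom was 9.48, so each library was counted as 1 replicate. The pipeline was tested on simulated data for SMC against sham in males. It called 79.8% of genes with a simulated log2 change of 1 and 41% of those with 0.5, and smaller changes were not simulated.

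The members, the 7 lists of 64 related genes and the 10 marker lists were chosen with earlier results of these data known. Named genes are the 7 members, 5 direct partners, every related gene with an unadjusted p under 0.05, the 3 genes outside the lists most correlated with each member, and markers whose level is given, except that some of these genes are counted in their lists but not reported by name here. The alternatives were DESeq2 size factors in edgeR, DESeq2 1.42.0, limma 3.58.1 voomWithQualityWeights, at least 10 counts in every library, no filter, the slow fibre score as a covariate, only the 12 libraries of a sex, male sham 4 and female sham 7 left out together, each library left out in turn, and, for the ratio, a prior count of 0.5.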

Additional observations from a re-analysis of the deposited data

Results flagged for a closer look

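Within groups of 6 mice, a lone highest or lowest value was looked for by Dixon's test in the 7 genes, 5 of their direct partners and the log2 ratio of Atp1b1 to Atp1b2. Of 52 groups of values, 11 held such a mouse, where chance alone would give about 2.6 if the groups were independent. They are not, because the ratio repeats the Atp1b1 values and the same mice recur among genes. Atp1b1 was low at 3.46 log2 CPM in male sham 4, at 4.43 in female sham 7 and at 5.89 in male SMC 14, against 7.33 to 8.06, 6.78 to 7.52 and 7.12 to 7.71 in the rest of each group. The log2 ratio of Atp1b1 to Atp1b2 was low in the same mice, at -4.30, -4.31 and -2.13. Their slow fibre scores were 1.96, 1.67 and 5.42, the lowest of their groups.

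Kcna7 was low at 5.23 log2 CPM in male sham 4, and Kcnj12 was high at 6.73 in female sham 7. Atp1b2 was low at 6.98 log2 CPM in male sham 1, against 7.60 to 7.85 in the rest of the group. Fxyd1 was high at 7.15 log2 CPM in male sham 3 and at 7.36 in female SMC 23.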

How the results depend on the processing

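No paired analysis was made, because replicate numbers run on across the groups and do not tell whether mice were paired. The study's methods mention housing of sham and SMC mice in pairs for some experiments. Of the 7 genes, 0 were called under SMC in males in any fit. With the slow fibre covariate, 1 was called under SMC in females, 3 averaged over the sexes, 2 between sham males and sham females and 4 between the sexes averaged over treatments, where 0, 0, 0 and 1 were called in the fit reported above. Over both sexes together, SMC gave 1 call by DESeq2, 1 with at least 10 counts in every library and 2 without male sham 4 and female sham 7. When 1 library was left out, the count was 0 to 2, and 2 only without female sham 7. The cause was not tested. Atp1b2 kept its call between the sexes averaged over treatments in every fit, at -0.56 to -0.44. The 7 genes had 265 to 29150 counts per library, and the width of their intervals, such as -1.18 to 0.77 for Atp1b1 under SMC in males, limits what can be said of differences that were not called.

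Counts over all genes moved more. For SMC in males they were 133 by DESeq2, 93 by limma and 13 with the covariate, and 0 to 78 with 1 library left out. For SMC in females they were 268 by DESeq2, 187 with the covariate, 155 without both low slow fibre libraries, 37 with DESeq2 size factors, 16 by limma, 14 with only female libraries, and 0 to 147 with 1 left out. Over both sexes together, SMC gave 778 by DESeq2, 733 with the covariate, 189 with no filter and 236 to 501 with 1 left out, and the difference between the sexes' responses 1 by DESeq2 and 0 to 1 with 1 left out. Between sham males and sham females there were 692 with the covariate, 575 by DESeq2, 511 without both libraries and 187 to 487 with 1 left out. Averaged over treatments, the sexes gave 1507 with the covariate, 1420 by limma and 1268 without both libraries.

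Signs turned only for log2 fold changes that were not called. By limma these were Kcnj2 in males (0.056), Kcna7 in females (-0.026) and Kcnj8 in males (-0.027). With the covariate they were Atp1b1 (-0.42), Kcna7 (-0.080) and Kcnj8 (-0.059) in females, Kcnj8 in males (-0.050), and the difference of the sexes' responses of Atp1b1 (0.077) and Clcn1 (-0.030). Without both libraries they were Atp1b1 (-0.062), Kcnj8 (-0.015) and Kcnj12 (0.0093) in females, Kcnj8 in males (-0.073), the response difference of Clcn1 (-0.12) and the sham sex difference of Scn4a (0.076). The last was 0.0013 with no filter. The Clcn1 response difference was also -0.0055 with DESeq2 size factors, -0.0057 by DESeq2, -0.095 by limma and -0.021 with no filter.

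With 1 library left out, values under SMC in males ran from -0.066 to 0.056 for Kcnj2, -0.035 to 0.098 for Kcnj11, -0.053 to 0.10 for Atp1b2 and -0.073 to 0.093 for Kcnj8. In females they ran from -0.062 to 0.30 for Atp1b1, -0.078 to 0.055 for Kcna7, -0.34 to 0.0092 for Kcnj12 and -0.015 to 0.14 for Kcnj8. The SMC value of Atp1b1 over both sexes ran from -0.15 to 0.059. The response difference ran from -0.085 to 0.050 for Clcn1, -0.21 to 0.042 for Atp1b2 and -0.0038 to 0.18 for Scn4a. The sham sex difference ran from -0.085 to 0.094 for Scn4a and -0.19 to 0.033 for Kcnj11. The beta subunit ratio differed by -0.63 to 0.45 in males and -0.37 to 0.47 in females.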

Other observations

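Among genes that follow loss of nerve input or the myogenic programme, the sexes differed in both myogenic factors on the lists. Myod1 was higher in males averaged over treatments (log2 fold change 0.44, FDR 0.0218) and in sham mice (0.60, FDR 0.0487 by edgeR), and Myog was lower in males averaged over treatments (-0.81, FDR 0.0378 by edgeR). Over all genes, 4.93% were called averaged over treatments and 1.97% in sham mice. Whether the calls of Myod1 and Myog hold in the other fits was not checked. Under SMC, 0 of 7 tested denervation markers were called in either sex, with 3 of 7 means higher in males and 5 of 7 in females. The fetal acetylcholine receptor subunit Chrng did not pass the filter on low counts and reached at most 0.371 CPM in any mouse.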
